A study of Mus musculus with 6 samples.

Results

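The pro-apoptotic BCL2 family is described here at the transcript level, as the 10 genes Bax, Bak1, Bok, Bid, Bad, Bik, Bmf, Bbc3, Pmaip1 and Bcl2l11. The members were chosen by gene name, and all 10 were found once among the 54532 genes of the deposited table. RNA sequencing was done on 3 libraries labelled PP2Ac knockdown and 3 labelled control, all labelled as the mouse insulinoma line MIN6. PP2Ac is the catalytic subunit of protein phosphatase 2A, and the series title concerns lipid damage to beta cells. The labels name no lipid treatment, clone or culture. The titles give the code sh2 for every knockdown library and shc for every control library, without explaining these codes. As knockdown rests on the single code sh2, whether sh2 had effects beyond the loss of PP2Ac was not tested. No source used here says whether the libraries of a group were grown apart. The spread between these libraries may thus be technical, and p-values measure only that spread. Levels are FPKM, reads scaled for gene length and library depth.

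BCL2 proteins decide whether the outer mitochondrial membrane is opened in apoptosis. BAX and BAK, and in some settings BOK, form the pores through which cytochrome c leaves. The BH3-only proteins relay damage signals: BIM (Bcl2l11), BID and PUMA (Bbc3) can activate the pore formers and bind the anti-apoptotic guardians such as BCL2, BCL-XL (Bcl2l1) and MCL1, while BAD, BMF, BIK and NOXA (Pmaip1) mainly bind the guardians. In beta cells this pathway is one route by which stress and excess fatty acid are known to kill.

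The shared feature of these proteins is the BH3 helix, and the coding stretch for its core is shown because it is what the members have in common beyond their names. A leucine followed by any 3 residues, a small residue and an aspartate occurred exactly once in the principal coding sequence (GENCODE M21, GRCm38) of each of the 9 members examined. Pmaip1 was not examined. Each line gives 33 bases, 5′ to 3′, with the leucine codon and the codons of the small residue and the aspartate in capitals.
Bax, chr7:45465997-45466029, minus strand: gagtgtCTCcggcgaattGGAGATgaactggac
Bak1, chr17:27022531-27022563, minus strand: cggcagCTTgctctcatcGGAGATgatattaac
Bok, chr1:93686651-93689170, plus strand, across an intron: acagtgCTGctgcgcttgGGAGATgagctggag
Bid, chr6:120897289-120897321, minus strand: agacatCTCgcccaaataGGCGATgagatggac
Bad, chr19:6950786-6950818, plus strand: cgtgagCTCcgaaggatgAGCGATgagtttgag
Bik, chr15:83543078-83543110, plus strand: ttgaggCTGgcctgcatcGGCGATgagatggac
Bmf, chr2:118545100-118545132, minus strand: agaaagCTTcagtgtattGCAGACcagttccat
Bbc3, chr7:16313767-16313799, plus strand: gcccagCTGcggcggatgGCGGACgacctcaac
Bcl2l11, chr2:128147144-128147176, plus strand: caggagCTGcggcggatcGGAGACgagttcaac
The small residue was glycine in 6 of these members, alanine in Bmf and Bbc3, and serine in Bad. All pore formers had glycine there. The coded proteins ran from 150 residues for Bik to 271 for Bmf.

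Recovered reads came to 14614737 to 15551377 in the knockdown libraries and 15270436 to 16030939 in the control libraries. The labels name PP2Ac and not the gene targeted. Ppp2ca, which encodes PP2Ac, was at 10.1, 11.4 and 10.9 FPKM in knockdown, against 42.5, 34.6 and 35.6 FPKM in control. Its log2 difference was -1.70 (SE 0.09, limma adjusted p = 5.35e-06). A two-sided exact permutation test gave p = 0.1, the smallest that 3 against 3 libraries allow. Of 12 beta cell markers, 10 averaged below 1 FPKM and 6 were at 0 in all 6 libraries, among them Ins1, Ins2, Nkx6-1 and Slc2a2, so the labelled beta cell type is not borne out by its defining markers. The 12, of which Mafa was the highest, summed to 8.02 to 9.63 FPKM in knockdown and 2.98 to 4.65 FPKM in control. Of the 6 fibroblast and stroma markers, 2 averaged below 1 FPKM, with Lum at 0. Their sum, in which Col1a1 was the highest gene, was 127 to 143 FPKM in knockdown and 16.1 to 19.7 FPKM in control. Of the 6 duct and acinar markers, 4 averaged below 1 FPKM, with Amy2a5 and Prss2 at 0. Their sum, mostly Spp1, was 352 to 391 FPKM in knockdown and 681 to 849 FPKM in control. All 6 immune, 4 endothelial and 4 other islet markers averaged below 1 FPKM. The mitochondrial genome took 1.26% to 1.38% of reads in knockdown and 2.74% to 3.50% in control. The part of these shifts in the results for the family was not tested, and in bulk RNA fewer cells of a type and less RNA per cell cannot be told apart.

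Across the family, 8 of the 10 members averaged at least 1 FPKM over the 6 libraries and were tested. Of these, 6 were higher in knockdown (Bax, Bak1, Bok, Bid, Bad and Bmf), 1 was lower (Bbc3) and 1 did not pass (Bcl2l11). Among all 11652 genes tested, 62.4% were called, 33.3% as higher and 29.1% as lower, at a limma adjusted p below 0.05. The groups did not overlap for any of the 8 members tested, and this was so for 68.1% of all tested genes. The difference was larger in size than in 75.8% of tested genes for Bak1, 47.8% for Bid, 83.0% for Bad, 74.1% for Bmf, 81.5% for Bbc3 and 25.8% for Bcl2l11. The median log2 difference of all tested genes was 0.03. Knockdown library 2 was the highest of the knockdown libraries in 7 of the 8 members tested, and its summed FPKM over all genes was 361098, against 336213 and 327005 in knockdown libraries 1 and 3. The control sums were 376056, 366988 and 343373. The miRNA gene Gm23935 alone was at 24061 FPKM in knockdown library 2, against 11936 and 9586 in knockdown libraries 1 and 3. In an alternative chosen after seeing the data, mitochondrial genes, rRNA and Gm23935 were left out and the sums made equal. The log2 difference was then 0.17 for Bax, 0.59 for Bak1, 0.90 for Bok, 0.28 for Bid, 0.73 for Bad and 0.61 for Bmf. It was -0.84 for Bbc3 and -0.24 for Bcl2l11, and 7 members were called. The median of all tested genes was then -0.04. Why knockdown library 2 was the highest was not tested.

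**Figure D1:**
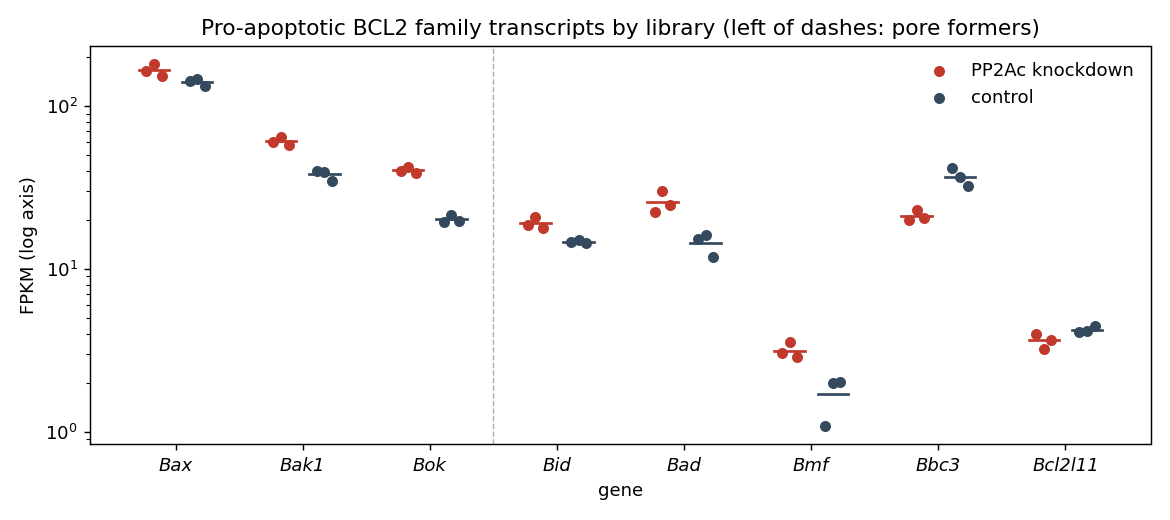
FPKM of the 8 tested members in each library, on a log axis, with knockdown libraries to the left of control libraries for each gene; points are libraries and short lines are group means (n = 3 each). The knockdown points lie above the control points for the pore formers and for Bid, Bad and Bmf, and below them for Bbc3 and Bcl2l11.

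All 3 pore formers rose, with log2 differences from 0.25 for Bax to 0.97 for Bok. Bok (ENSMUSG00000026278, chr1:93685660-93695764, plus strand), the least understood pore former, was at 39.8, 42.6 and 39.1 FPKM in knockdown libraries, against 19.4, 21.4 and 19.7 FPKM in control libraries. The knockdown mean was 2.01 times the control mean, and the replicates of each group were close together, with coefficients of variation of 4.60% in knockdown and 5.23% in control. The log2 difference was 0.97 (SE 0.07, 95% interval 0.81 to 1.13, limma adjusted p = 1.64e-05), larger in size than in 89.1% of tested genes. These values rest on 3408 reads in knockdown and 1777 in control. Bok kept its call under all 19 alternative settings, with differences of 0.88 to 1.01.

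Bak1 (ENSMUSG00000057789, chr17:27019810-27029009, minus strand), which encodes the pore former resident on mitochondria, was at 60.3, 64.9 and 57.6 FPKM in knockdown libraries and 39.8, 39.6 and 34.9 FPKM in control libraries. The knockdown mean was 1.60 times the control mean. On the log2 scale the difference was 0.66 (SE 0.08, limma adjusted p = 0.000186). Of the exon bases of Bak1 in GENCODE M21, 25.5% overlap exons of Ggnbp1 on the other strand; Ggnbp1 itself had 134 reads in knockdown and 151 in control, against 6707 and 4392 for Bak1.

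Bax (ENSMUSG00000003873, chr7:45461697-45466898, minus strand), which encodes the pore former that moves from cytosol to mitochondria, was the most abundant member. It was at 166, 182 and 154 FPKM in knockdown libraries and 142, 146 and 133 FPKM in control libraries. The lowest knockdown library stood only slightly above the highest control library. Its mean was 167 ± 14.0 FPKM in knockdown and 140.4 ± 7.09 FPKM in control (SD, n = 3 each), a ratio of 1.19. Exons of Gm45808 on the same strand cover 12.2% of the exon bases of Bax, and Gm45808 had no read in any library. Its log2 difference was 0.25 (SE 0.08, 95% interval 0.06 to 0.44, limma adjusted p = 0.0302), larger in size than in 35.0% of tested genes. The call was lost without knockdown library 1 (adjusted p = 0.0705) or 2 (0.101), without control library 1 (0.0586) or 3 (0.0902), and with no filter on low values (0.0659). Over all 19 alternatives its adjusted p ran from 0.00519 to 0.101, with the difference positive throughout.

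The proportions of the pore formers differed between the groups. Bok made up 15.0%, 14.7% and 15.6% of the summed FPKM of Bax, Bak1 and Bok in knockdown libraries, against 9.64%, 10.3% and 10.53% in control libraries. Bak1 made up 22.7 ± 0.272% in knockdown and 19.2 ± 0.550% in control, and Bax 62.2 ± 0.723% in knockdown and 70.7 ± 0.117% in control (SD, n = 3 each). For each of these shares the groups did not overlap. The 3 genes together reached 266, 289 and 250.4 FPKM in knockdown, against 201, 207 and 187 FPKM in control. No test was made on these sums and shares, which combine the members and depend on the gene lengths used for FPKM.

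**Figure D2:**
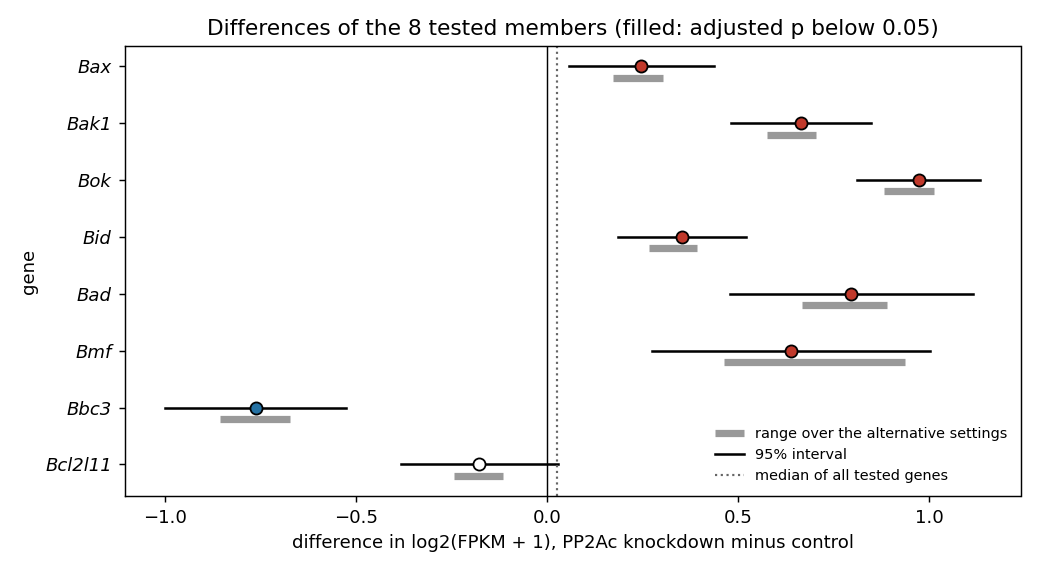
Difference in log2(FPKM + 1), PP2Ac knockdown minus control, for the 8 tested members with 95% intervals; red points were called higher, blue lower, and the open point was not called. Grey bars give the lowest and highest value over the alternative settings, all of which stayed on the same side of 0, from 0.88 to 1.01 for Bok and from -0.86 to -0.67 for Bbc3.

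The BH3-only members moved in both directions. Bad, Bid and Bmf were higher in knockdown, Bbc3 was lower, Bcl2l11 did not pass, and Bik and Pmaip1 fell below the filter of 1 FPKM. Bbc3 (ENSMUSG00000002083, chr7:16308393-16318205, plus strand) encodes PUMA, a strong killer protein induced by p53 and by endoplasmic reticulum stress. It was at 19.97, 23.1 and 20.6 FPKM in knockdown libraries, against 41.7, 36.8 and 32.1 FPKM in control libraries. The highest knockdown library was well below the lowest control library. The knockdown mean was 57.6% of the control mean, with a log2 difference of -0.76 (SE 0.10, 95% interval -0.999 to -0.53, limma adjusted p = 0.000340). It rests on 2063 reads in knockdown and 3750 in control, and the call held under all 19 alternatives.

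Bad (ENSMUSG00000024959, chr19:6941861-6951898, plus strand) encodes a BH3-only protein that survival kinases keep phosphorylated and bound to 14-3-3 proteins; phosphatases including PP2A are known to release it. It was at 22.4, 30.3 and 24.9 FPKM in knockdown libraries, against 15.3, 16.3 and 11.9 FPKM in control libraries. The spread within both groups was the widest among the members above 10 FPKM, with coefficients of variation of 15.6% in knockdown and 16.0% in control, yet the groups were apart. The log2 difference was 0.80 (SE 0.14, limma adjusted p = 0.00130). Exons of Gpr137 on the other strand cover 20.5% of the exon bases of Bad in GENCODE M21, and the strand setting of the counting is not given in the sources used here. The deposited gene length of Bad is 2007 bases, against 2558 exon bases in GENCODE M21. The share of the counted bases that overlaps Gpr137 is therefore not known. Gpr137 was itself higher in knockdown, at 17.2, 20.9 and 17.99 FPKM, against 7.70, 8.57 and 6.32 FPKM in control (log2 difference 1.21, SE 0.11, limma adjusted p = 5.79e-05). In the shared stretch, reads of the 2 genes cannot be told apart without strand, so the size of the Bad rise is uncertain.

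Bid (ENSMUSG00000004446, chr6:120891930-120916853, minus strand), whose product is cleaved by caspase 8 and carries death receptor signals to mitochondria, was at 18.6, 20.8 and 17.99 FPKM in knockdown libraries and 14.6, 15.1 and 14.5 FPKM in control libraries. The control libraries were nearly level, and all knockdown libraries lay above them. This was a log2 difference of 0.35 (SE 0.07, limma adjusted p = 0.00326), with a knockdown mean 1.30 times the control mean. Exons of Bcl2l13 on the other strand cover 17.7% of the exon bases of Bid, and Bcl2l13 was at 12.7 ± 0.583 FPKM in knockdown and 12.2 ± 0.166 FPKM in control (SD, n = 3 each), a difference that did not pass (limma adjusted p = 0.576).

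Bmf (ENSMUSG00000040093, chr2:118528757-118549687, minus strand) encodes a BH3-only protein held on the actin and myosin cytoskeleton through a dynein light chain. It was at 3.03, 3.54 and 2.87 FPKM in knockdown libraries, against 1.08, 1.99 and 2.02 FPKM in control libraries. Control library 1 was low, with 91 reads against 162 and 174 in control libraries 2 and 3 and 225 to 285 in the knockdown libraries. The log2 difference was 0.64 (SE 0.16, limma adjusted p = 0.00782) and was 0.46 without control library 1, where the call held. On the log2(FPKM + 1) scale the change of such a low gene is understated. The ratio of the mean FPKM was 1.86, and the log2 difference was 0.92 in limma voom on recovered reads. Both of these values include the low control library 1.

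Bcl2l11 (ENSMUSG00000027381, chr2:128126038-128162547, plus strand), which encodes BIM, an activator of BAX and BAK with a main part in beta cell death, was at 4.01, 3.25 and 3.68 FPKM in knockdown libraries and 4.12, 4.13 and 4.48 FPKM in control libraries. The groups did not overlap, but the lowest control library was only just above the highest knockdown library. The log2 difference was -0.18 (SE 0.09, 95% interval -0.38 to 0.03, limma adjusted p = 0.117), and it did not pass under any of its 18 alternatives, the lowest adjusted p being 0.0593 in voom.

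Bik (ENSMUSG00000016758, chr15:83526862-83544634, plus strand), whose product resides at the endoplasmic reticulum, had 5, 2 and 5 reads in knockdown libraries and 0, 2 and 4 in control libraries. These are levels of 0.0821 to 0.210 FPKM in knockdown and 0 to 0.153 FPKM in control, close to the 0.115 to 0.126 FPKM that 3 reads would give, and no fold is given. Pmaip1 (ENSMUSG00000024521), which encodes NOXA, an MCL1-binding protein, had no read in any library. At this depth 3 reads would have given at most 0.0759 FPKM, a limit that covers counting error only.

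The order of levels within the family differed between the groups. In knockdown it ran Bax, Bak1, Bok, Bad, Bbc3, Bid, Bcl2l11, Bmf, Bik and Pmaip1. In control Bbc3 stood next to Bak1, ahead of Bok, Bid and Bad. In knockdown the ranges of neighbours overlapped for Bad and Bbc3, for Bbc3 and Bid, and for Bcl2l11 and Bmf. In control they overlapped for Bak1 and Bbc3, for Bid and Bad, and for Bik and Pmaip1. Bax exceeded the next member 2.74-fold in knockdown and 3.68-fold in control.

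The summed level of the BH3-only members overlapped between the groups, while its makeup differed. Summed over the 7 genes, FPKM was 68.2, 81.1 and 70.3 in knockdown and 76.7, 74.4 and 65.2 in control. Bbc3 made up 29.1 ± 0.467% of that sum in knockdown and 51.0 ± 2.83% in control, while Bad made up 35.2 ± 2.28% in knockdown and 20.01 ± 1.84% in control (SD, n = 3 each). The Bad to Bbc3 ratio was 1.12, 1.31 and 1.21 in knockdown libraries, against 0.367, 0.442 and 0.369 in control libraries. These sums, shares and ratios are without a test. Those with Bad carry the uncertain size of its rise, given above for the overlap with Gpr137.

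**Figure D3:**
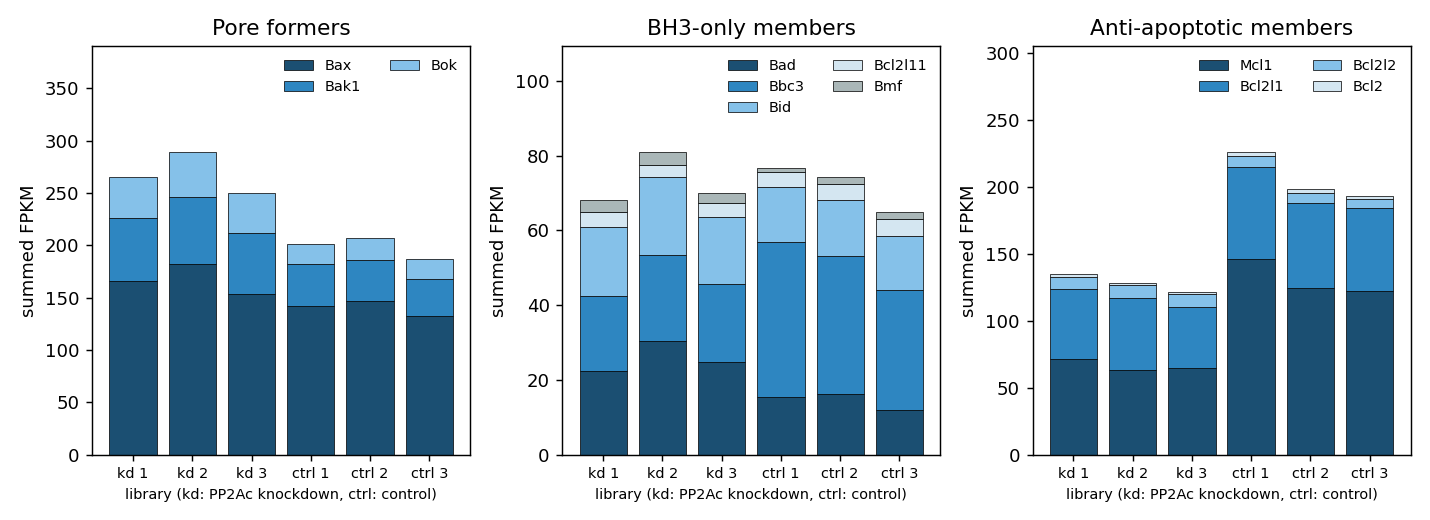
Summed FPKM per library of the pore formers, the BH3-only members (Bik and Pmaip1, at or near 0, are not drawn) and the anti-apoptotic members, with 3 knockdown libraries to the left of 3 control libraries; segments are genes. Pore former sums are 250.4 to 289 in knockdown and 187 to 207 in control, BH3-only sums overlap, and anti-apoptotic sums are 122 to 135 in knockdown and 193 to 226 in control.

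The guardians that bind these proteins were mostly lower in knockdown. Of 8 anti-apoptotic genes, 4 were high enough to test; Bcl2, Bcl2l1 and Mcl1 were lower and Bcl2l2 was higher, beside the 62.4% of all tested genes called. Mcl1, the short-lived guardian of BAK, was at 71.1, 63.1 and 64.4 FPKM in knockdown and 146, 125 and 122 FPKM in control (log2 difference -0.97, SE 0.09, limma adjusted p = 5.46e-05). Bcl2l1, which encodes BCL-XL, was at 52.5, 53.8 and 45.6 FPKM in knockdown and 68.8, 63.2 and 62.5 FPKM in control (log2 difference -0.35, SE 0.08, limma adjusted p = 0.00625). Bcl2 was low in both groups, at 1.94 ± 0.0586 FPKM in knockdown and 2.95 ± 0.133 FPKM in control (SD, n = 3 each; limma adjusted p = 0.00310). Bcl2l2, which encodes BCL-W, was at 9.43 ± 0.172 FPKM in knockdown and 7.12 ± 0.822 FPKM in control (SD, n = 3 each; limma adjusted p = 0.00621).

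The balance of transcripts between these arms can be given within each library. The ratio of summed pore formers to summed anti-apoptotic genes was 1.97, 2.25 and 2.06 in knockdown libraries and 0.891, 1.05 and 0.969 in control libraries. The Bax to Bcl2l1 ratio was 3.15, 3.38 and 3.37 in knockdown libraries and 2.07, 2.32 and 2.12 in control libraries. The Bak1 to Mcl1 ratio, in which the numerator rose and the denominator fell, was 0.848, 1.03 and 0.894 in knockdown libraries and 0.272, 0.318 and 0.287 in control libraries. In all of these ratios every knockdown library was above every control library. This follows from the values above, as each numerator was higher and each denominator lower in knockdown without overlap, and is no separate result. The ratios are of transcripts and without a test, and protein levels were not measured in these data.

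Genes that act on the members changed in both directions. Of 15 listed transcription factors known to control members, 12 were tested, 6 were higher and 5 lower (91.7% called, against 62.4% of all tested genes), with a median log2 difference of 0.18. Ddit3, which encodes CHOP, a stress factor that can raise BIM and PUMA transcription, was at 28.6 ± 2.07 FPKM in knockdown and 97.1 ± 3.32 FPKM in control (log2 difference -1.73, limma adjusted p = 2.32e-06). The table lists Ddit3 on 2 rows; these values are of ENSMUSG00000025408, and the other row was at 0 in every library. Atf4, which acts upstream of CHOP, was at 264 ± 7.57 FPKM in knockdown and 455 ± 25.8 FPKM in control (log2 difference -0.78, limma adjusted p = 6.12e-05). Foxo4 was higher, at 12.5 ± 1.67 FPKM in knockdown and 5.16 ± 0.385 FPKM in control, and so was the interferon response factor gene Irf1, at 12.5 ± 0.547 FPKM in knockdown and 6.66 ± 0.507 FPKM in control (SD, n = 3 each). Trp53, which encodes p53, the inducer of Bax, Bbc3 and Pmaip1, was at 56.2 ± 5.07 FPKM in knockdown and 50.4 ± 1.41 FPKM in control and did not pass (limma adjusted p = 0.134).

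Kinases that phosphorylate BAD, BIM or BMF were called in 10 of 14 tested genes, 6 higher and 4 lower (71.4% called, near the 62.4% of all tested genes; median log2 difference -0.09). The BAD kinase genes Akt1, at 161 ± 10.9 FPKM in knockdown and 102 ± 3.89 FPKM in control, Prkaca, at 75.4 ± 4.94 and 47.6 ± 2.22, and Rps6ka1, at 4.61 ± 0.265 and 1.25 ± 0.206, were higher in knockdown. Pim1, another BAD kinase gene, was lower, at 5.47 ± 0.0615 FPKM in knockdown and 11.8 ± 1.76 FPKM in control (SD, n = 3 each). Of 13 partner genes that hold or release the members, 5 were higher and 2 lower (53.8% called, against 62.4% of all tested genes; median 0.175). Ywhaq, which encodes 14-3-3 theta, was at 54.9 ± 2.53 FPKM in knockdown and 28.7 ± 2.67 FPKM in control. Dynll1, which encodes the dynein light chain that tethers BIM, was at 52.2 ± 4.54 FPKM in knockdown and 29.6 ± 4.66 FPKM in control. Vdac1 was higher, at 152 ± 5.08 FPKM in knockdown and 106 ± 5.70 FPKM in control, and the 14-3-3 sigma gene Sfn was lower, at 1.14 ± 0.138 FPKM in knockdown and 3.00 ± 0.322 FPKM in control (SD, n = 3 each). Vdac2, a partner of BAK, did not pass (limma adjusted p = 0.135).

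On the death receptor route that ends in BID cleavage, 8 of 9 genes were tested, 4 were higher and 1 lower (62.5% called, as among all tested genes, 62.4%; median log2 difference 0.225). Casp8, the protease that cuts BID, was at 8.75 ± 0.239 FPKM in knockdown and 5.81 ± 0.267 FPKM in control. Tnfrsf1a was at 78.0 ± 7.84 FPKM in knockdown and 54.2 ± 4.12 FPKM in control, and Tradd at 24.9 ± 3.14 in knockdown and 18.7 ± 1.90 in control. Cflar, which encodes the caspase 8 inhibitor FLIP, was lower, at 5.08 ± 0.422 FPKM in knockdown and 11.1 ± 1.04 FPKM in control (SD, n = 3 each). Downstream of the pores, 11 of 11 apoptosome and released-protein genes were tested, with 5 higher and 3 lower (72.7% called, against 62.4% of all tested genes; median -0.07). This count of 8 called genes was 5 without knockdown library 2 and 5 without control library 3. Casp6, at 4.09 ± 0.0982 FPKM in knockdown and 2.54 ± 0.124 FPKM in control, and Htra2, at 26.3 ± 2.84 FPKM in knockdown and 15.9 ± 2.26 FPKM in control, were higher, while the cytochrome c gene Cycs was lower, at 33.8 ± 3.65 FPKM in knockdown and 48.0 ± 4.59 FPKM in control (SD, n = 3 each). Of 9 other BCL2 homologues and BH3-bearing genes, 5 were tested and 2 called (40.0%, against 62.4% of all tested genes), both higher: Bnip3, at 8.03 ± 0.345 FPKM in knockdown and 5.94 ± 0.186 in control, and Bcl2l12, at 4.32 ± 0.404 in knockdown and 2.30 ± 0.679 in control. In the same list Becn1 (limma adjusted p = 0.394) and Bcl2l13 did not pass.

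**Figure D4:**
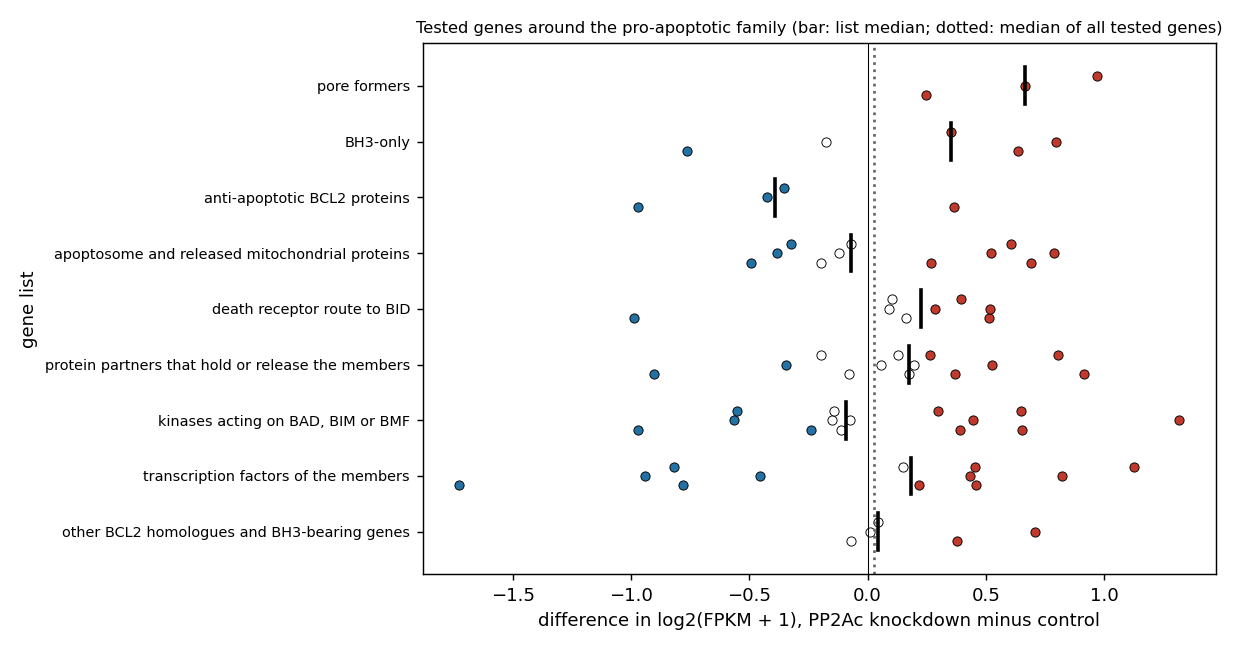
Difference in log2(FPKM + 1), PP2Ac knockdown minus control, of every tested gene in each list; red points were called higher, blue lower, and open points were not called, black bars are list medians, and the dotted line is the median of all tested genes (0.03). The pore formers all lie to the right of 0, 3 of the 4 anti-apoptotic genes lie to the left, and the other lists lie on both sides.

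Promoter windows from RefSeq (GRCm38.p6), 250 bases before to 50 after an annotated start, were found for 8 members, 14 windows in all. Pmaip1 was not examined here either, and no window was found for Bik. The FOXO core, GTAAACA on either strand, was in 2 of the 14 windows, of Bbc3 and of Bcl2l11, and in 3.65% of all 32851 windows. Both members also have a window without it. The p53 decamer was in 2 of the 14 windows, of Bax and of Bmf, and in 8.36% of all windows. The GC box, GGGCGG on either strand, was in 10 of the 14 windows, of 7 members, and in 35.7% of all windows. Windows of the same gene can overlap, as they do for Bbc3, so the 14 are not all separate. The C/EBP-ATF element TTGCATCA and the E2F sites TTTGGCGC and TTTCGCGC, on either strand, were in no member window and in 0.895% and 0.813% of all windows. Matches are descriptions of letters, and binding was not measured. Whether they bear on the differences between the groups was not tested. The windows of Bbc3, Bcl2l11 and Bax that hold the FOXO core or the p53 decamer are shown, with those letters in capitals, and that of Bmf is not. Counted from the start at 0, the FOXO core begins at -167 in Bbc3 and at -227 in Bcl2l11. The p53 decamer begins at -201 in Bax.
Bbc3, chr7:16310011-16310310, plus strand: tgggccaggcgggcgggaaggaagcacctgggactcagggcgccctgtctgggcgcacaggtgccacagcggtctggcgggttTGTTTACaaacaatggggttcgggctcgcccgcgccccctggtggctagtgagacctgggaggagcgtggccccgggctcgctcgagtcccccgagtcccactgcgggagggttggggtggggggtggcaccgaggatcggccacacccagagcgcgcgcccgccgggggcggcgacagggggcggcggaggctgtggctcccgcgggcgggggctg
Bcl2l11, chr2:128125788-128126087, plus strand: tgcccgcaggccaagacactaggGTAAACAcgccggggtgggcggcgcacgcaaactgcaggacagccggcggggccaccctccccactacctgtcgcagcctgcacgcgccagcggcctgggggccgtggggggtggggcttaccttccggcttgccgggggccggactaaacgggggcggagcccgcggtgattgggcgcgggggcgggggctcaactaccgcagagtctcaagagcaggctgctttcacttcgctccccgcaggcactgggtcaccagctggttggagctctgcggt
Bax, chr7:45466849-45467148, minus strand: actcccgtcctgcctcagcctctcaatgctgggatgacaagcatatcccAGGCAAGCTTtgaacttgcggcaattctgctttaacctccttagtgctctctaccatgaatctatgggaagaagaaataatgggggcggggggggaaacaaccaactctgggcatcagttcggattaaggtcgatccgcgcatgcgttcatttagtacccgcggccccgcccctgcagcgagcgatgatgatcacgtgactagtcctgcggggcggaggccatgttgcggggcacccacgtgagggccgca
The windows of Bbc3 are rich in G and C, at 74.7% to 78.0%, and the shown windows of Bcl2l11 and Bax hold 71.0% and 57.3%, beside a median of 52.7% over all windows.

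By profile over the 6 libraries, the tested protein-coding genes nearest to Bok, the member with the largest called rise, were Cnpy3, Grk6 and Nckap5l, at root mean square distances of 0.0289, 0.0324 and 0.0333 between centred log2(FPKM + 1) profiles. Cnpy3 was at 49.4 FPKM on average in knockdown and 23.8 FPKM in control. The genes nearest to Bbc3, the only called fall, were Hmga1, Txndc12 and Ier3, at distances of 0.0443, 0.0453 and 0.0506. Ier3 was at 86.4 FPKM on average in knockdown and 152 FPKM in control. These neighbours are the closest among the tested profiles, over 6 points that share the same libraries, and they are given as a description.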

How the data were processed

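The 6 libraries were sequenced as RNA, 3 labelled PP2Ac knockdown and 3 labelled control. The authors deposited FPKM values for 54532 genes with name, position and length, in a column per library. Genome builds are GRCm38 and mm10 per the submitters' processing notes; no source used here names the aligner, the counter or the strand setting. Multiplying FPKM by gene length gave whole multiples of a step for 100% of values above 0, within 0.01, and so the reads per gene. The members and gene lists were chosen with earlier results of these data known. Genes averaging at least 1 FPKM (11652) entered limma 3.58.1, run in R 4.3.3 on log2(FPKM + 1) with a trended eBayes, two-sided, adjusted by Benjamini-Hochberg over all of them, at a threshold of 0.05. Differences are knockdown minus control and are understated for low genes. Counts of replicates differed beyond sampling noise (chi-square of 7.15 to 11.0 for each degree of freedom), and each library was kept as its own replicate. The fit was also run on simulated data, in which far fewer genes were changed than were called here. That run therefore does not show how reliable the calls are in these data. Named genes are all members, Ppp2ca, Bcl2, Bcl2l1, Mcl1, up to 4 genes per list with the smallest p, and the 3 nearest profiles. A gene that this rule names is not reported here. Trp53, Bcl2l2, Vdac2 and the overlapping genes were named after their values were known. Coding sequences come from GENCODE M21 and promoters from RefSeq. Tables were made in Python 3.11.15. Alternatives covered pseudocounts, filters, scalings, variance models, feature sets, voom on recovered reads, a replicate block and leave-outs of each library.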

Additional observations from a re-analysis of the deposited data

How the results depend on the processing

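The count of 7 called members was 6 to 7 in all 19 alternatives, with Bbc3 the only lower member, and Ppp2ca kept its call in all of them. The direction of each of the 8 tested members was the same in every alternative that tested it, and Bax was the only member to lose its call, as given above. With a mean FPKM of at least 5, 2208 genes were lower, 5 apoptosome genes were called and 1 other BCL2 homologue was called, because fewer genes were tested. Leaving out each library in turn gave 5 to 7 called apoptosome genes. Bcl2l13, which was not called, had a log2 difference of -0.013 with quantile normalization and of -0.025 without mitochondrial genes, rRNA and Gm23935, an alternative chosen after seeing the data; the cause was not tested. More genes were lower than higher in 2 of the 19 alternatives: 3807 lower and 3428 higher without mitochondrial genes, rRNA and Gm23935, where the median log2 difference of all genes was -0.04, and 4122 lower and 4001 higher with no filter on low values. With the replicate number as a block, 7363 genes and 7 members were called, against 7267 and 7 without it. Same-numbered libraries correlated in their deviations from the group means at -0.0107, 0.159 and 0.0518, and not every library correlated best with its own number, so the numbers are not taken to pair the libraries. Bik fell below the filter of 1 FPKM and was tested only in the alternative with no filter on low values. Pmaip1, without a read, could not be tested, and Bmf rests on at most 285 reads in each library.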
